A study of Mus musculus with 15 samples.

Results

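The adhesion G-protein-coupled receptors described here are 7 genes named by symbol: Adgrg1, Adgrg3, Adgrg5, Adgrg7, Adgrl4, Adgre1 and Adgre5. They were chosen from measured values of these arrays, because several had lower signal in Zbtb46-GFP+ cells than in common dendritic cell progenitors (CDPs). Of the 7 genes, 6 had a probe set assigned to that symbol alone, each a single probe set, among 19938 genes measured in the series. Adgrg5 had none and is not analysed here. The 6 probe sets were 10574259 for Adgrg1, 10574276 for Adgrg3, 10440002 for Adgrg7, 10496872 for Adgrl4, 10446282 for Adgre1 and 10580033 for Adgre5. In the RefSeq table Adgrg1, Adgrg3, Adgrg5 and Adgre5 are on chromosome 8, Adgrg7 is on chromosome 16, Adgrl4 on chromosome 3 and Adgre1 on chromosome 17. The genome build behind the array annotation is not given in the sources used here, so no gene positions are printed.

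Adhesion G-protein-coupled receptors carry a long extracellular region joined to a membrane-spanning signalling bundle by a domain at which many of them cut themselves. Ligand binding or mechanical pull on the outer fragment can expose a tethered peptide that activates the receptor, which then signals through G proteins. In blood cells Adgre1 is a classic surface marker of mouse macrophages that eosinophils also carry, Adgre5 is CD97 of mature leukocytes, and Adgrg1, also known as GPR56, is known from stem and progenitor cells.

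Cells were sorted from bone marrow of WT, Batf3 KO and Id2 KO mice, all carrying the Zbtb46-GFP reporter, as CDPs or as GFP-positive cells with intermediate c-Kit. Zbtb46 marks progenitors committed to classical dendritic cells (cDCs), Batf3 is an AP-1 factor needed by the cDC1 subset, and Id2 is an inhibitor of E proteins, which promote the plasmacytoid dendritic cell (pDC) fate. The labels name chimeric mice as the source of WT and Id2 KO cells, and reporter mice, without that word, for Batf3 KO, so host and Batf3 genotype cannot be told apart. The labels give no age, no copy number of the reporter, and no statement that replicates are separate mice, so p-values measure only the spread between these arrays. Each genotype had 2 CDP arrays and 3 Zbtb46-GFP+ arrays, 15 in all.

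The first replicates of the Zbtb46-GFP+ groups, 3 arrays, were not on the scale of the rest. Their median signals were 23.8 to 24.1, while the other 12 arrays had medians of 100.8 to 112.1, and 15586 of 28853 probe sets (54.0%) were identical on all 3 of them. Values below therefore come from the 12 arrays, 2 per group, and the 3 arrays are given apart. Batf3 signal was lower by 2.82 on the log2 scale in Batf3 KO than in WT Zbtb46-GFP+ cells, and Id2 signal was lower by 3.13 in Id2 KO. Id2 signal was still higher in Id2 KO Zbtb46-GFP+ cells, at 8.61 ± 0.30, than in Id2 KO CDPs, by 2.09 (adjusted p = 0.00259), and its CDP difference from WT, -1.03, was not called. A probe outside a deleted part would check nothing, and which part each probe set covers is not given. Zbtb46 had a mean log2 signal of 7.08 ± 0.14 (SD, n = 2) in WT Zbtb46-GFP+ cells, against 6.0 ± 0.01 in Batf3 KO and 6.02 ± 0.09 in Id2 KO. Leaving out 1 array at a time, WT Zbtb46-GFP+ cells were above WT CDPs in Zbtb46 by 0.98 to 1.18. Against WT Zbtb46-GFP+ cells the difference was -1.18 to -0.98 in Batf3 KO and -1.16 to -0.97 in Id2 KO. With all 15 arrays and a term for the 3 of replicate 1 the differences were -0.72 and -0.78, and neither was called. The knockout Zbtb46-GFP+ cells thus had about the Zbtb46 signal of WT CDPs on the 12 arrays. Their means lay within the range of olfactory receptor genes, 3.54 to 6.42, given below as a rough guide to low signal. How closely signals this low followed RNA was not tested. Of 8 dendritic cell progenitor markers, Csf1r and Cd34 were lower in WT Zbtb46-GFP+ cells than in CDPs, by log2 differences of -2.03 and -2.44, and Kit and Csf2ra were higher, by 1.5 and 1.22. Flt3 was high in both, at 11.35 ± 0.27 in CDPs and 11.45 ± 0.66 in Zbtb46-GFP+ cells of WT. The sex-linked Xist was lower by 6.61 in Batf3 KO and by 6.53 in Id2 KO than in WT Zbtb46-GFP+ cells, so on the 12 arrays sex-linked signal cannot be told apart from knockout against WT. On replicate 1 of Batf3 KO Zbtb46-GFP+ cells, however, Xist was at 11.02, near the 10.53 of WT replicate 1, against 3.66 on that of Id2 KO, so this library did not match the other Batf3 KO arrays in sex-linked genes. The 6 genes are autosomal, and whether sex bears on their differences was not tested.

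The step below is the mean log2 signal in Zbtb46-GFP+ cells minus that in CDPs of the same genotype. It is the contrast on which the genes were picked, so it is a description without a test. Cells were measured in sorted pools, where fewer cells of a type and less RNA per cell cannot be told apart. Of the 6 genes, 4 were lower in Zbtb46-GFP+ cells of every genotype (Adgrg1, Adgrg3, Adgrg7 and Adgrl4). Adgre5 was higher in every genotype, and Adgre1 was higher in WT and Batf3 KO. In Id2 KO the mean of Adgre1 was also higher, by 0.39, but the 95% interval, from -0.14 to 0.91, spanned both signs. The median step of the 6 genes was -2.97 in WT, -2.35 in Batf3 KO and -2.20 in Id2 KO, against 0.03, 0.01 and 0.01 over all genes.

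For background, limma, which fits a linear model to every gene, called 6.38% of all genes lower and 4.71% higher in the WT step at an adjusted p under 0.05. The shares were 3.32% lower and 3.87% higher in Batf3 KO, and 2.98% lower and 3.84% higher in Id2 KO. Of the 6 genes, 4 passed as lower in each genotype, while those that passed as higher numbered 1 in WT, 2 in Batf3 KO and 1 in Id2 KO. Nothing is read from these counts. Among 19938 genes ordered from the lowest WT step, Adgrg3 was 7, Adgrl4 8, Adgrg1 10 and Adgrg7 22. Adgre5 was 15 from the highest.

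**Figure D1:**
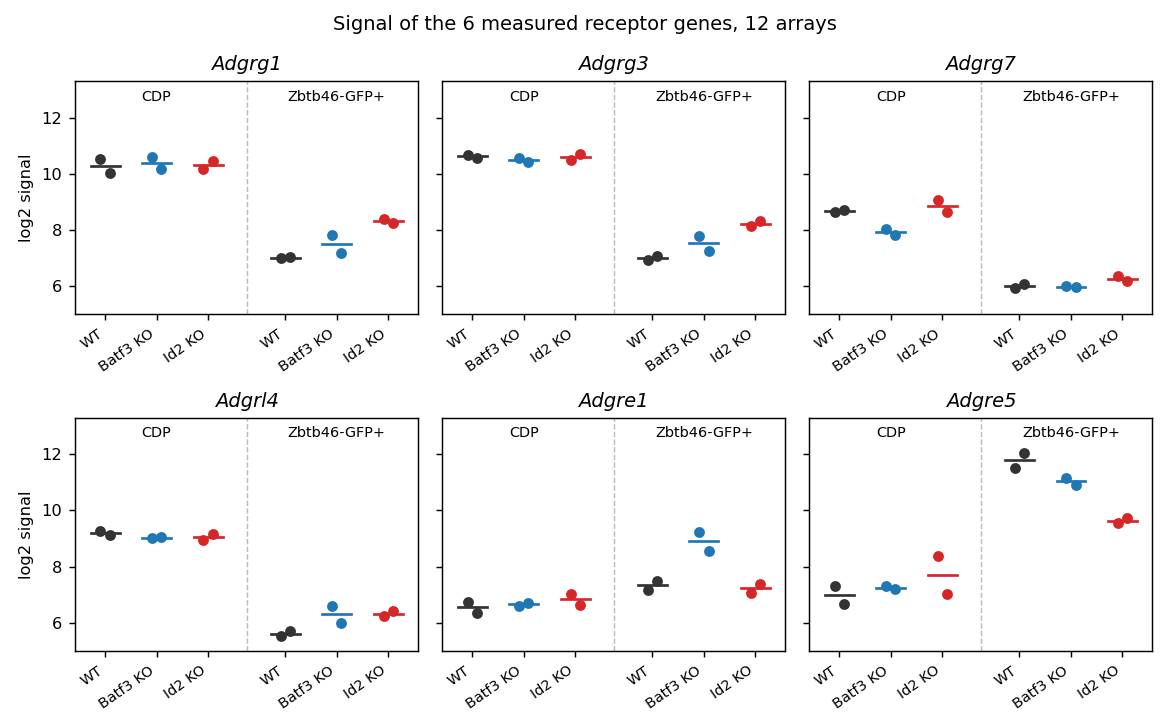
Log2 signal of the 6 measured receptor genes on 12 arrays, with 1 panel per gene, points for single arrays, horizontal lines for group means (n = 2) and genotypes side by side within CDPs and Zbtb46-GFP+ cells. Adgrg1, Adgrg3, Adgrg7 and Adgrl4 are lower in Zbtb46-GFP+ cells, Adgre5 is higher, and Adgre1 stands highest in Batf3 KO Zbtb46-GFP+ cells, at 9.23 and 8.57.

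Adgrg1, a receptor for collagen III and transglutaminase 2, had log2 signals of 10.52 and 10.03 in CDPs of WT mice and of 6.99 and 7.02 in WT Zbtb46-GFP+ cells. In Batf3 KO it was at 10.61 and 10.16 in CDPs and at 7.83 and 7.17 in Zbtb46-GFP+ cells. In Id2 KO it was at 10.16 and 10.47 in CDPs and at 8.38 and 8.23 in Zbtb46-GFP+ cells. The CDP arrays of the 3 genotypes overlapped, while in Zbtb46-GFP+ cells WT was lowest, Batf3 KO next and Id2 KO highest, without overlap. The step was -3.27 ± 0.24 (SE) in WT, 9.67-fold lower, -2.88 in Batf3 KO, 7.38-fold lower, and -2.02 in Id2 KO, 4.05-fold lower.

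Adgrg3, also known as GPR97 and known from granulocytes, had log2 signals of 10.67 and 10.56 in CDPs of WT mice and of 6.93 and 7.08 in WT Zbtb46-GFP+ cells. In Batf3 KO the values were 10.55 and 10.43 in CDPs and 7.78 and 7.25 in Zbtb46-GFP+ cells. In Id2 KO they were 10.50 and 10.71 in CDPs and 8.13 and 8.31 in Zbtb46-GFP+ cells. The order of genotypes in Zbtb46-GFP+ cells was that of Adgrg1, again with no overlap. The step was -3.61 ± 0.17 in WT, 12.2-fold lower, -2.97 in Batf3 KO, 7.86-fold lower, and -2.39 in Id2 KO, 5.23-fold lower.

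Adgrl4, also known as ELTD1 and known from endothelium, had log2 signals of 9.28 and 9.13 in CDPs of WT mice and of 5.51 and 5.72 in WT Zbtb46-GFP+ cells. In Batf3 KO the values were 9.01 and 9.05, then 6.59 and 6.0. In Id2 KO they were 8.95 and 9.15, then 6.25 and 6.40. Both knockouts were above WT in Zbtb46-GFP+ cells and overlapped each other. The step was -3.59 ± 0.18 in WT, 12-fold lower, -2.74 in Batf3 KO, 6.66-fold lower, and -2.72 in Id2 KO, 6.61-fold lower.

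Adgrg7, also known as GPR128 and known from intestinal epithelium, had log2 signals of 8.63 and 8.70 in CDPs of WT mice and of 5.94 and 6.07 in WT Zbtb46-GFP+ cells. In Batf3 KO it was at 8.02 and 7.83, then at 5.99 and 5.95. In Id2 KO it was at 9.06 and 8.62, then at 6.34 and 6.18. In CDPs Batf3 KO lay below the other genotypes, and in Zbtb46-GFP+ cells WT and Batf3 KO overlapped below Id2 KO. The step was -2.66 ± 0.16 in WT, 6.33-fold lower, -1.96 in Batf3 KO, 3.89-fold lower, and -2.58 in Id2 KO, 5.97-fold lower.

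The files hold no detection call, and each probe set has its own background. As a rough guide, 1015 olfactory receptor genes, most of them not known from blood cells, had mean log2 signals with a median of 4.78 and 5th and 95th percentiles of 3.54 and 6.42. The Zbtb46-GFP+ signals of Adgrg7 lay within that range on all 6 arrays, as did those of Adgrl4 except for the 6.59 of Batf3 KO. How closely signals this low followed RNA was not tested, and it bears on the size of those steps.

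Adgre5 (CD97), whose known ligands include CD55, Thy1 and integrins, had log2 signals of 7.31 and 6.68 in CDPs of WT mice and of 11.51 and 12.06 in WT Zbtb46-GFP+ cells. In Batf3 KO the values were 7.30 and 7.19 in CDPs and 11.15 and 10.91 in Zbtb46-GFP+ cells. In Id2 KO they were 8.38 and 7.02 in CDPs and 9.56 and 9.72 in Zbtb46-GFP+ cells. Its order in Zbtb46-GFP+ cells was the opposite of that of Adgrg1 and Adgrg3, with WT highest and Id2 KO lowest and no overlap. The step was 4.79 ± 0.37 in WT, 27.7-fold higher, 3.79 in Batf3 KO, 13.8-fold higher, and 1.95 in Id2 KO, 3.86-fold higher.

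Adgre1, the macrophage marker, had log2 signals of 6.75 and 6.36 in CDPs of WT mice and of 7.17 and 7.50 in WT Zbtb46-GFP+ cells. In Batf3 KO it was at 6.61 and 6.71, then at 9.23 and 8.57. In Id2 KO it was at 7.04 and 6.62, then at 7.07 and 7.37. Batf3 KO Zbtb46-GFP+ cells stood apart from the other groups, while WT and Id2 KO overlapped in each stage. The step was 0.78 ± 0.24 in WT, 1.72-fold higher, and 2.24 in Batf3 KO, 4.71-fold higher. In Id2 KO it was 0.39 ± 0.24, 1.31-fold higher, the smallest step of any of the 6 genes. The 95% interval of that Id2 KO step, from -0.14 to 0.91, spanned both signs.

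The knockout step minus the WT step gives how far the step itself differed, and it was not tested, since the genes were picked on the step. In Id2 KO this difference was 1.26 ± 0.34 (SE) for Adgrg1, 1.22 ± 0.25 for Adgrg3, 0.86 ± 0.26 for Adgrl4 and 0.08 ± 0.22 for Adgrg7. It was -2.85 ± 0.52 for Adgre5 and -0.40 ± 0.34 for Adgre1. A positive difference of a gene that is lower in Zbtb46-GFP+ cells means a smaller step, so the Id2 KO steps of Adgrg1, Adgrg3, Adgrl4 and Adgre5 were smaller than in WT. In Batf3 KO the values were 0.39 for Adgrg1, 0.64 for Adgrg3, 0.85 for Adgrl4 and 0.70 for Adgrg7, with -1.01 for Adgre5 and 1.45 for Adgre1.

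The genotypes were compared within each stage with limma over all genes. Comparisons against WT share the WT arrays with the WT step on which the genes were picked. WT Zbtb46-GFP+ values low by chance would favour picking a gene as lower and would also raise its knockout minus WT difference. Nothing is read from counts of the 6 genes in those comparisons. The comparison of Id2 KO with Batf3 KO uses no WT array, though its arrays enter the knockout steps.

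In Zbtb46-GFP+ cells without Id2, Adgrg1 and Adgrg3 were higher and Adgre5 was lower than in WT. These 3 of the 6 genes passed an adjusted p under 0.05, against 1.81% of all genes, and 4 had an unadjusted p under 0.05, as did 1852 of the 19938 genes. Adgrg3 was higher by 1.21 ± 0.17 (SE), 2.32-fold, with an adjusted p of 0.00486. Adgrg1 was higher by 1.30 ± 0.24, 2.46-fold, with an adjusted p of 0.0199. Adgre5 was lower by a log2 difference of -2.15 ± 0.37, 4.42-fold, with an adjusted p of 0.0124. The median difference of the 6 genes was 0.48, against -0.02 over all genes, and it mixes genes lower and higher in the step. Nothing is read from it.

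These calls rest on few arrays. Without Id2 KO Zbtb46-GFP+ replicate 3 the limma adjusted p was 0.0686 for Adgrg3, 0.118 for Adgrg1 and 0.0877 for Adgre5. Without Id2 KO Zbtb46-GFP+ replicate 2 it was 0.190 for Adgrg1 and 0.121 for Adgre5. Without WT Zbtb46-GFP+ replicate 3 it was 0.0840 for Adgrg1 and 0.0861 for Adgre5, and without WT Zbtb46-GFP+ replicate 2 it was 0.0870 for Adgrg1. With all 15 arrays and a term for the 3 replicate 1 arrays, Adgrg1 differed by 0.87 with an adjusted p of 0.182.

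Adgrl4 differed by 0.71 between Id2 KO and WT Zbtb46-GFP+ cells, with a limma adjusted p of 0.0968, and it passed at 0.0387 without either Batf3 KO Zbtb46-GFP+ array and at 0.0231 with a block that sets the array of higher 75th percentile of signal in each group against the other. That block is set from the same values and raised the genes called here from 361 to 1212, so passing under it adds no separate support. The Adgrl4 groups did not overlap, but the difference did not pass in the main fit. Adgrg7 differed by 0.26 with a 95% interval from -0.09 to 0.60, and Adgre1 by -0.12 with an interval from -0.65 to 0.40. Neither of these excludes a small difference in either direction.

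Several marker lists moved with these 3 genes in the same cells, and their part in the results was not tested. The summed signal of 14 neutrophil and granule genes was 19300 to 20700 in WT, 26200 to 35900 in Batf3 KO and 49300 to 51600 in Id2 KO Zbtb46-GFP+ cells, and 6 of the 14 were higher in Id2 KO than in WT, among them Elane by 2.32, Ms4a3 by 1.95 and Prtn3 by 1.90. The sum of 14 stem and early progenitor genes was 2440 to 2530 in WT, 2820 to 3240 in Batf3 KO and 3760 to 3940 in Id2 KO, against 12900 to 13500 in WT CDPs, and 3 of the 14 were higher in Id2 KO (Cd93 by 2.17, Myb by 1.21, Sox4 by 0.89). The sum of 10 pDC genes was 5140 to 7100 in WT, 7340 to 10900 in Batf3 KO and 17600 to 19600 in Id2 KO, with 6 of 10 higher in Id2 KO. The sum of 12 cDC1 genes was 26000 to 27800 in WT, 10600 to 11600 in Batf3 KO and 6750 to 7240 in Id2 KO, with 10 of 12 lower in Id2 KO. Adgrg1 and Adgrg3 therefore ordered the genotypes as the neutrophil, stem and pDC sums did, and Adgre5 as the cDC1 sum did. The cDC1 list includes Id2 and Batf3, so part of its sum and count comes from the deleted genes themselves. Id2, at -3.13, was 1 of the 10 lower in Id2 KO. The sum of 9 endothelial genes was 1390 to 1500 in WT, 1810 to 1820 in Batf3 KO and 2110 to 2350 in Id2 KO, and 1 of the 9, Pecam1, was higher in Id2 KO, by 1.40. Their median difference there was 0.06, against -0.02 over all genes. Adgrl4, known from endothelium, did not share that order, since its knockout arrays overlapped. The sum of 8 basophil and mast cell genes was 554 to 1170 in WT, 929 to 1140 in Batf3 KO and 2280 to 2940 in Id2 KO, with 1 of 8, Mcpt8, higher in Id2 KO, by 2.88. The sum of 9 cDC2 genes was 4940 to 9260 in WT and 10200 to 12400 in Id2 KO, with 1 of 9, Cd209d, higher, by 1.82. No listed marker had a signal of 0 on any array.

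In Zbtb46-GFP+ cells without Batf3, Adgre1 was higher than in WT. It was 1 of the 6 genes to pass, against 0.336% of all genes, and 3 had an unadjusted p under 0.05, as did 887 of the 19938 genes. The difference was 1.56 ± 0.24 (SE), 2.95-fold, with a limma adjusted p of 0.0181. The adjusted p was 0.112 without WT Zbtb46-GFP+ replicate 2 and 0.200 without Batf3 KO Zbtb46-GFP+ replicate 2, which held the highest Adgre1 value.

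The other genes did not pass between Batf3 KO and WT Zbtb46-GFP+ cells. Adgrl4 differed by 0.68 (adjusted p = 0.351), Adgrg3 by 0.51 (adjusted p = 0.666) and Adgrg1 by 0.50, each with both Batf3 KO arrays above both WT arrays. Adgre5 differed by -0.76, with both Batf3 KO arrays below WT, and Adgrg7 by -0.03. The 95% intervals reached from -0.03 to 1.03 for Adgrg1 and from -1.56 to 0.04 for Adgre5. They overlapped those of Id2 KO against WT, from 0.77 to 1.83 for Adgrg1 and from -2.95 to -1.34 for Adgre5. A difference between the knockouts can therefore not be read from them.

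Marker levels in the same cells were as follows. The summed signal of 12 monocyte and macrophage genes was 8520 to 9140 in WT, 8970 to 9560 in Batf3 KO and 8120 to 8430 in Id2 KO Zbtb46-GFP+ cells, and 1 of 12, F13a1, was higher in Batf3 KO, by 1.09. The sum of 7 eosinophil genes was 519 to 595 in WT and 684 to 1020 in Batf3 KO, with 0 of 7 passing. The top of that range came from Prg2, an eosinophil granule gene, at a log2 signal of 8.83 on Batf3 KO replicate 2 and 6.26 on replicate 3. The sum of 9 cDC2 genes was 4940 to 9260 in WT, 11800 to 14700 in Batf3 KO and 10200 to 12400 in Id2 KO, and 1 of 9, Cd209d, was higher than in WT, by 2.07 in Batf3 KO. The part of any of these cells in the Adgre1 result was not tested.

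Id2 KO and Batf3 KO Zbtb46-GFP+ cells differed in Adgre1. It was lower in Id2 KO by a log2 difference of -1.68 ± 0.24 (SE), 3.21-fold, with a limma adjusted p of 0.0103, and was 1 of the 6 genes to pass, against 0.592% of all genes. The adjusted p was 0.154 without Id2 KO Zbtb46-GFP+ replicate 2, 0.0513 without Id2 KO replicate 3 and 0.0716 without Batf3 KO replicate 2. Adgre5 differed by -1.39 (adjusted p = 0.214), Adgrg1 by 0.80 (adjusted p = 0.334) and Adgrg3 by 0.71 (adjusted p = 0.168), none of which passed, while all 3, like 1082 of the 19938 genes, had an unadjusted p under 0.05. With the same block by 75th percentile, Adgrg3 passed at 0.0353 and Adgre5 at 0.0166, while the genes called among all went from 118 to 506. With all 15 arrays and a term for the 3, Adgre5 differed by -1.45 with a limma adjusted p of 0.0440. Leaving out 1 array at a time, its difference ranged from -1.50 to -1.27. Whether Adgre5 passed thus depended on the setting, and it did not pass in the main fit. Adgrl4 differed by 0.03, with an interval from -0.37 to 0.43.

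In CDPs none of the 6 genes passed. Between Batf3 KO and WT, limma called 0 of the 6 genes, against 0.0502% of all genes. An unadjusted p under 0.05 was held by 257 of the 19938 genes and by 1 of the 6. That gene was Adgrg7, lower by a log2 difference of -0.74 ± 0.16 (adjusted p = 0.692), with both Batf3 KO arrays below both WT arrays. Between Id2 KO and WT CDPs, limma called 0 of the 6 genes, against 0.0251% of all genes. An unadjusted p under 0.05 was held by 126 of the 19938 genes and by 0 of the 6. The widest interval there was that of Adgre5, from -0.10 to 1.51.

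**Figure D2:**
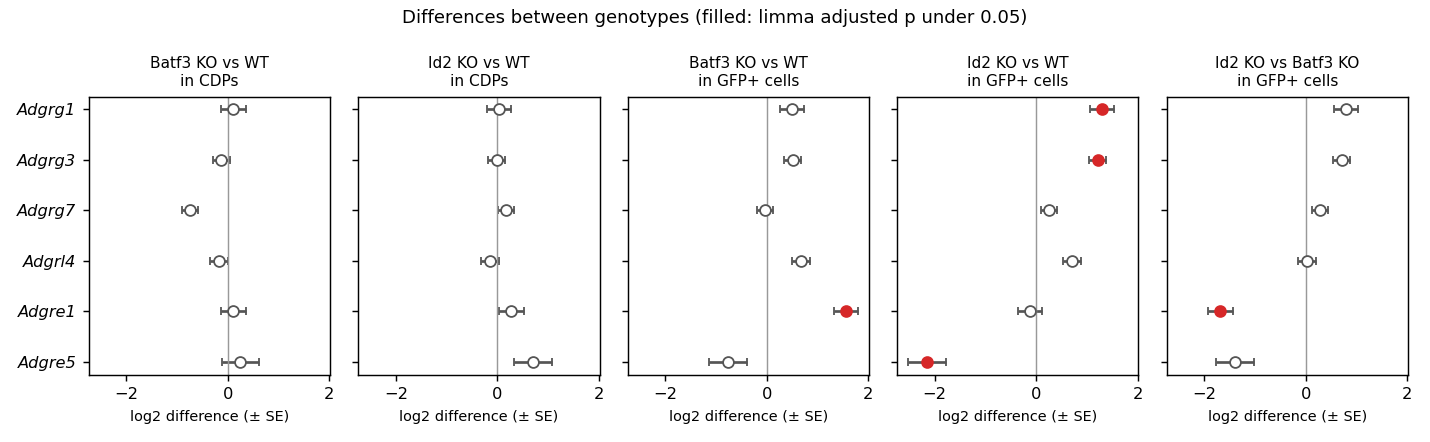
Log2 differences between genotypes (first minus second, ± SE from limma, 2 arrays per group) for the 6 receptor genes in 5 comparisons, with filled points for an adjusted p under 0.05. No point is filled in CDPs; in Zbtb46-GFP+ cells Adgre1 is filled in both comparisons with Batf3 KO, and Adgrg1, Adgrg3 and Adgre5 in Id2 KO against WT.

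The 3 replicate 1 arrays of Zbtb46-GFP+ cells gave a second look at direction, without a test. Adgrg1 was at 4.96 and Adgrl4 at 3.51 on all 3, and Adgrg3 was at 5.20 in WT and Batf3 KO and at 5.40 in Id2 KO, so these arrays order the genotypes little or not at all for them. Adgre5 was at 8.69 in WT, 8.25 in Batf3 KO and 6.67 in Id2 KO, the same order as on the other arrays, and Id2 KO was lower than WT by a log2 difference of -2.02. Adgre1 was at 4.61 in WT, 5.83 in Batf3 KO and 5.02 in Id2 KO, with Batf3 KO above WT by 1.23. Each is the value of 1 array, and this Batf3 KO array did not match the other Batf3 KO arrays in sex-linked genes. Adgrg7 was at 4.05 in WT and 4.0 in both knockouts. With all 15 arrays in the fit and no term for these 3, none of the 6 genes was called in any comparison.

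Within a group, 1 of the 2 arrays had a higher 75th percentile of signal than the other. Set against each other within the higher arrays, Id2 KO minus WT in Zbtb46-GFP+ cells was 1.36 for Adgrg1, 1.04 for Adgrg3 and -2.50 for Adgre5. Within the lower arrays it was 1.24, 1.38 and -1.79. Batf3 KO minus WT for Adgre1 was 1.73 within the higher and 1.40 within the lower arrays, and Id2 KO minus Batf3 KO was -2.17 and -1.20. Since the groups of these genes do not overlap, the direction was fixed, and only the sizes are informative.

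Adgrg5, Adgrg1 and Adgrg3 lie side by side on chromosome 8 in RefSeq, with non-coding RNA genes between them. The 3 measured genes on the Adgrg5 side were Polr2c, with a WT step of -0.23, Dok4, with 0.43, and Ccdc102a, with 0.83. On the Adgrg3 side, the next gene, Drc7, a gene of the motile cilium, had log2 signals of 9.19 and 8.55 in CDPs of WT mice and of 5.74 and 5.82 in their Zbtb46-GFP+ cells. Its step was -3.09 ± 0.20 (SE) in WT, with a limma adjusted p of 5.05e-06, -2.75 in Batf3 KO and -2.80 in Id2 KO. Kifc3 and Cngb1 beyond it had WT steps of 0.05 and 0.34. The run of lower signal thus covered Adgrg1, Adgrg3 and Drc7 among the measured genes. Drc7 differed by 0.33 between Id2 KO and WT Zbtb46-GFP+ cells (limma adjusted p = 0.804) and so did not pass where Adgrg1 and Adgrg3 did. Its Zbtb46-GFP+ means, 5.78 in WT, 5.88 in Batf3 KO and 6.11 in Id2 KO, lay within the range given above for olfactory receptor genes. Signals that low may hide a difference, and the difference between these genes was not tested.

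**Figure D3:**
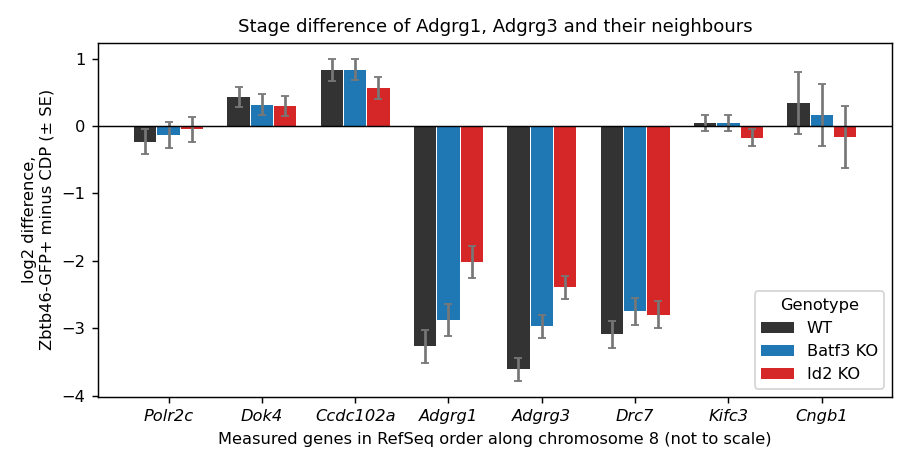
Step of log2 signal (Zbtb46-GFP+ minus CDP, ± SE from limma, 2 arrays per group) for Adgrg1, Adgrg3 and the 3 nearest measured genes on each side in RefSeq order, with bars for WT, Batf3 KO and Id2 KO. Adgrg1, Adgrg3 and Drc7 are lower by 2.02 or more in every genotype, and the 5 other genes lie between -0.23 and 0.84.

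RefSeq promoter windows, from 250 bases before to 50 bases after a start, are shown for Adgrg1 and Adgrg3 because these neighbours moved together and both passed in Id2 KO. The windows, on GRCm38.p6 and the plus strand, are chr8:94976859-94977158 and chr8:94984149-94984448 for the starts of Adgrg1 and chr8:95017442-95017741 for Adgrg3. Capitals mark matches to the E-box CACCTG, a motif of E proteins, and to the AP-1 motif TGANTCA, both searched on both strands.
Adgrg1 window 1: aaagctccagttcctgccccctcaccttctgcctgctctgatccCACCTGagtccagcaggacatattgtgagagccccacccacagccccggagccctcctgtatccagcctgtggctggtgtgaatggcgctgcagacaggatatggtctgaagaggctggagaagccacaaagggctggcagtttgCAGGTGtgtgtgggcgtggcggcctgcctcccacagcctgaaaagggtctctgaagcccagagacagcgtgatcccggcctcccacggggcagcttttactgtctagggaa
Adgrg1 window 2: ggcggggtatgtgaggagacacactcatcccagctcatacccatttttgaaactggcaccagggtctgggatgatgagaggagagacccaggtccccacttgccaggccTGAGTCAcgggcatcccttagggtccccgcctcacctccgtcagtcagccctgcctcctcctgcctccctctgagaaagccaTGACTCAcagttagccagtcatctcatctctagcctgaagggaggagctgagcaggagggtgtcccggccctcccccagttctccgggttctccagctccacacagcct
Adgrg3 window: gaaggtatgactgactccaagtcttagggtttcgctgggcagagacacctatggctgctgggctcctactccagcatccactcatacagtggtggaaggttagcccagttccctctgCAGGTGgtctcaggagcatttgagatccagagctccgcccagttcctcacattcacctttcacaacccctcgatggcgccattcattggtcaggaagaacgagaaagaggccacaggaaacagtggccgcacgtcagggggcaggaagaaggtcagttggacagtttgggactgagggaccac
The E-box matched at bases 45 and 190 of the first Adgrg1 window and at base 118 of the Adgrg3 window, and 20.2% of 32851 mouse promoter windows hold it. The AP-1 motif matched at bases 110 and 192 of the second Adgrg1 window, and 7.81% of windows hold it. A match is a description of letters, and no binding was measured here. Windows were also given for Adgrg5, Adgrg7 and Adgrl4, 5 of the 7 genes in all, and were searched for the same motifs and 4 more. The PU.1 motif AGGAAGT was held by 9.35% of all windows. The RUNX motif TGTGGT was held by 16.8%. The GATA motif AGATAA was held by 11.2%, and the IRF motif, a GAAA repeated after 2 free bases, by 3.44%. The Adgrg7 window held GATA and IRF matches, the Adgrg5 window PU.1 and RUNX matches, and the Adgrl4 window held none of the 6 motifs.

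Across the 12 arrays the 4 genes lower in Zbtb46-GFP+ cells tracked each other, and the step on which they were picked enters these values. Pearson's r was 0.99 between Adgrg1 and Adgrg3 and between Adgrg3 and Adgrl4, 0.98 between Adgrg1 and Adgrl4, and 0.93 to 0.96 between Adgrg7 and the other 3. Adgre5 had r between -0.97 and -0.89 with them, and Adgre1 between -0.69 and -0.63, with 0.74 between Adgre1 and Adgre5. These values describe 12 arrays that share the step and 6 groups, and carry no test.

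By the same measure, among 1566 genes whose group means spanned at least 1 log2 unit, the genes most like Adgrg1 were Adgrg3 (r = 0.994), Mcm6 (0.992) and Pla2g15 (0.991). Those most like Adgrg3 were Mcm6 (0.994), Adgrg1 (0.994) and F13a1 (0.991). Those most like Adgrl4 were Rab44 (0.991), Adgrg3 (0.991) and Cdk6 (0.989), and those most like Adgrg7 were Bzw2 (0.990), Snord52 (0.988) and Shmt2 (0.987). Adgre5 was most like Pdlim5, Rab11fip1 and Plin2, each at 0.984. Adgre1 was most like Tnfsf8 (0.960), Galnt9 (0.958) and Slc6a12 (0.948). The Tnfsf8 step was 1.76 in Batf3 KO, 0.56 in WT and 0.15 in Id2 KO. Tnfsf8 was picked by its likeness to Adgre1 on these arrays, so a like pattern follows from the choice.

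Of the 23 other adhesion receptor genes listed, 22 were measured, and most of them lay near 0 in every step. In the WT step 2 of the 22 were called higher and 0 lower by limma, beside 4.71% and 6.38% of all genes, and their median was 0.14, against 0.03 over all genes. The called genes were Adgre4, also known as EMR4 and known from macrophages and dendritic cells, and Adgra2, also known as GPR124 and known from brain vessels. Both had a WT step of 2.60, and both were called higher in the knockouts too, with 1.89 and 3.05 in Batf3 KO and 1.33 and 2.04 in Id2 KO for Adgre4 and Adgra2. The Id2 KO call of Adgre4 had an adjusted p of 0.0793 without Id2 KO Zbtb46-GFP+ replicate 2 and of 0.0510 without replicate 3.

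In Zbtb46-GFP+ cells both Id2 KO signals of Adgre4, and the 6.34 of Batf3 KO, lay within the range given for olfactory receptor genes. Adgre4 had log2 signals of 7.57 and 7.76 in WT, 7.35 and 6.34 in Batf3 KO and 6.40 and 6.29 in Id2 KO Zbtb46-GFP+ cells. It was lower in Id2 KO than in WT by a log2 difference of -1.32, as Adgre5 was, with a limma adjusted p of 0.0216, but leaving out any of the 4 arrays compared gave an adjusted p of 0.0628 to 0.177 (the first without WT replicate 2, the last without Id2 KO replicate 3). Celsr1, a receptor of planar cell polarity, was at 7.27 and 7.75 in WT and at 8.57 and 8.61 in Id2 KO, higher by 1.08 with an adjusted p of 0.0239, which became 0.150 without WT replicate 2, 0.177 without Id2 KO replicate 2 and 0.181 without Id2 KO replicate 3. Adgra2 was at 10.53 and 10.10 in Batf3 KO and at 9.09 and 8.74 in Id2 KO, lower by a log2 difference of -1.40 with an adjusted p of 0.00897, which was 0.0740 without Batf3 KO replicate 2 and 0.103 without Id2 KO replicate 3.

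**Figure D4:**
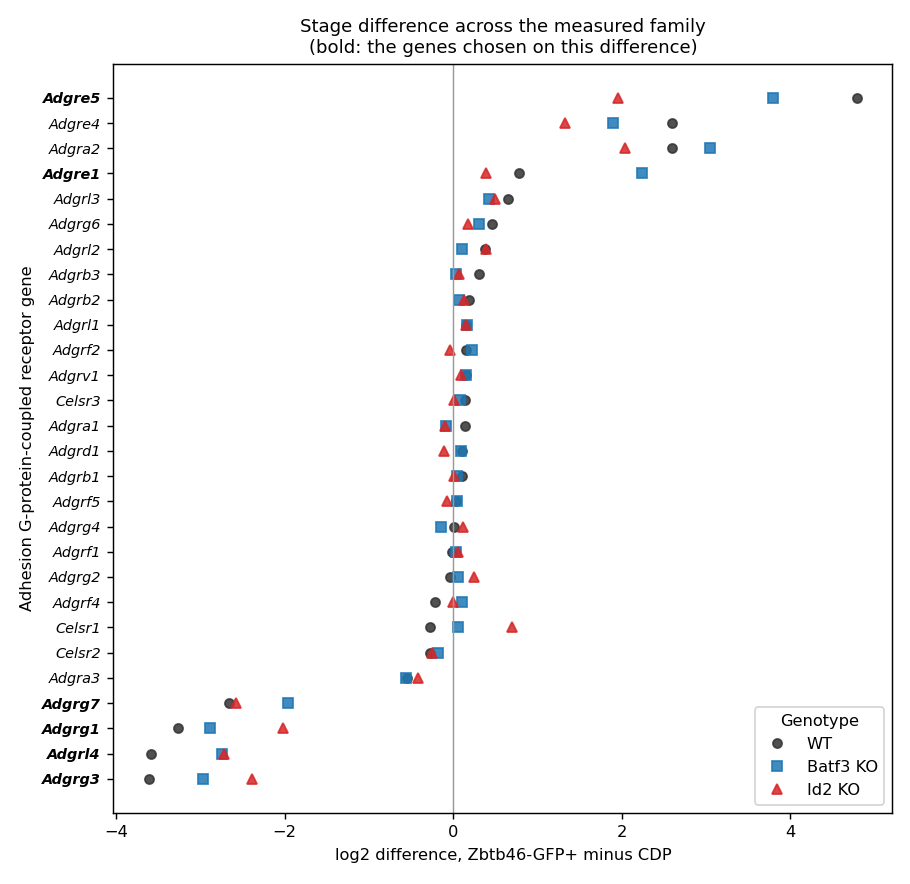
Step of log2 signal (Zbtb46-GFP+ minus CDP, difference of means of 2 arrays each) for the 28 measured adhesion receptor genes, with circles for WT, squares for Batf3 KO and triangles for Id2 KO and the genes picked on the step in bold. Adgrg3, Adgrl4, Adgrg1 and Adgrg7 have steps of -1.96 or lower in every genotype, and Adgre5, Adgre4 and Adgra2 of 1.33 or higher.

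All 19 listed ligands and partners of these receptors were measured, and in the WT step 3 were called higher (Cd9 by 2.67, Itgav by 1.01 and Itgb1 by 0.84) and 0 lower, beside 4.71% and 6.38% of all genes. In the Batf3 KO step 3 were called higher (Cd9 by 2.36, Tgm2, the transglutaminase, by 0.94 and Thy1 by 0.59) and Cd81 lower, by a log2 difference of -1.04. In the Id2 KO step 2 were called higher (Cd9 by 1.15 and Thy1 by 1.07) and Cd81 lower, with -1.16. In the WT step Cd81 differed by -0.74 (adjusted p = 0.0749) and Tgm2 by 0.63 (adjusted p = 0.0597), and the differences between genotypes in these steps were not tested. Cd9 and Cd81 are tetraspanins, and Itgav and Itgb1 encode integrin subunits. Cd55, the decay-accelerating factor that binds Adgre5, was not called, at 3.82 ± 0.10 in CDPs and 3.95 ± 0.04 in Zbtb46-GFP+ cells of WT mice. Both lay within the range given for olfactory receptor genes. Between Id2 KO and WT Zbtb46-GFP+ cells Cd9 was lower by a log2 difference of -1.38 (adjusted p = 0.0246), and Thy1, another ligand of Adgre5, was higher by 0.76 (adjusted p = 0.0106), while Adgre5 itself was lower. Leaving out any of the 4 arrays gave Cd9 an adjusted p of 0.0838 to 0.190. For Thy1 it was 0.0619 without WT replicate 3, 0.0560 and 0.139 without Id2 KO replicates 2 and 3, and 0.220 with each array centred on its 75th percentile. Cd9 was also lower in Id2 KO than in Batf3 KO, by a log2 difference of -1.45 (adjusted p = 0.0416), which was 0.0557 to 0.313 without any 1 of 8 of the arrays, those of WT and Batf3 KO CDPs and of both knockouts' Zbtb46-GFP+ cells.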

How the data were processed

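Signal was read from 15 Affymetrix arrays of sorted mouse bone marrow cells, labelled with the WT Pico kit per the labels' protocols. The deposited values are linear intensity per probe set, made by the authors with Affymetrix Expression Console and RMA, per the submitters' processing notes, which give no versions or settings; log2 was taken here. RMA sets all arrays processed together to a similar distribution, which the 3 replicate 1 Zbtb46-GFP+ arrays did not share with the others. The number of arrays limits the precision.

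Of 28853 probe sets, 21789 had 1 gene symbol, 1621 several and 5443 none in the platform annotation. Single-symbol probe sets were used, with the highest mean where a gene had several, giving 19938 genes. limma 3.58.1 in R 4.3.3 fitted 6 group means to 12 arrays, with empirical Bayes without trend, 6 residual degrees of freedom, two-sided tests and Benjamini-Hochberg adjustment over all genes. A gene was called at an adjusted p under 0.05. The procedure was tested on simulated data. Changes of scaling, filter, arrays, blocks and probe set choice were tried.

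The receptor genes, the lists and the naming rule were chosen with earlier results of these data known. Named are all 7 receptor genes, genes of the family and ligand lists that were called between genotypes or in the WT step, the ligands called in a knockout step, the 3 genes most correlated with each, 3 measured neighbours on each side of the chromosome 8 group, label checks and up to 4 markers of a list. A list of signalling genes is not reported here. Prg2 was named after its values were seen. Replicate numbers were not taken to pair arrays in the main fit, since they did not pair them in every comparison. Residuals of same-numbered arrays correlated at 0.53 to 0.68 between CDP groups and at 0.48 between the knockouts in Zbtb46-GFP+ cells. Between WT and the knockouts in Zbtb46-GFP+ cells they correlated at -0.55 and -0.42. Promoters are RefSeq's, GRCm38.p6.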

Additional observations from a re-analysis of the deposited data

Results flagged for a closer look

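Adgrg3 and Adgrl4 differed between Batf3 KO and WT in opposite directions in the 2 stages, with every Batf3 KO array on 1 side of both WT arrays in each stage. With 2 arrays per group such separation often arises without a difference, and its share over all genes was not counted. For Adgrg3 the log2 difference was -0.13 in CDPs, with a 95% interval from -0.52 to 0.25, and 0.51 in Zbtb46-GFP+ cells. For Adgrl4 it was -0.17 in CDPs, with an interval from -0.58 to 0.23, and 0.68 in Zbtb46-GFP+ cells. Both CDP intervals span both signs, so no reversal of direction is read from these values. None of these differences passed limma's threshold on its own, and the difference between the stages was not tested.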

How the results depend on the processing

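With all 15 arrays as deposited and no term for the 3 on another scale, calls were all but lost. The WT step then had 1 called gene, and the Batf3 KO and Id2 KO steps and the 5 genotype comparisons had 0, with 131, 123, 4, 11, 4, 36 and 12 genes at an unadjusted p under 0.05 in limma (Batf3 KO step, Id2 KO step, Batf3 KO and WT in CDPs, the same in Zbtb46-GFP+ cells, Id2 KO and WT in CDPs, the same in Zbtb46-GFP+ cells, and Id2 KO and Batf3 KO); 0 of the 6 receptor genes were then called in any of them. Under it the Adgre1 step was -0.13 in WT and -0.34 in Id2 KO, and the Id2 KO step of Cd9 was -0.08. With a term for the 3, genes called were 5 for Batf3 KO against WT in CDPs (10 without those arrays), 29 in Zbtb46-GFP+ cells (67), 0 for Id2 KO against WT in CDPs (5, with 176 at an unadjusted p under 0.05) and 207 in Zbtb46-GFP+ cells (361). Between Id2 KO and Batf3 KO 102 of 19938 genes were called (118 without those arrays), with 2 of the 6 receptor genes among them. Adgre1 differed by 0.06 between Id2 KO and WT Zbtb46-GFP+ cells in both 15-array fits.

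Quantile normalization gave 2352 called genes for the Batf3 KO step (1432), 2372 for the Id2 KO step (1359), 118 for Batf3 KO against WT in Zbtb46-GFP+ cells, 669 for Id2 KO against WT and 251 for Id2 KO against Batf3 KO (118). Centring on the 75th percentile moved the median WT step to 0.16 and its split from 940 higher and 1272 lower to 1153 and 858, and put Adgrl4 at -0.01 between Id2 KO and Batf3 KO. Without genes of low signal, 39 genes were called for Batf3 KO against WT in Zbtb46-GFP+ cells and 3 for Id2 KO against WT in CDPs.

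The replicate block gave 555 called genes for Id2 KO against WT in Zbtb46-GFP+ cells and moved no other total by over 1.5 times, but genes called lower went from 1272 to 724, 661 to 368 and 594 to 375 in the WT, Batf3 KO and Id2 KO steps. The array-set block, which in Zbtb46-GFP+ cells pairs WT arrays with knockout arrays of the other number, gave 4829 (2212), 3487 and 3234 called genes for the WT, Batf3 KO and Id2 KO steps. It gave 26 for Batf3 KO against WT in CDPs, 250 in Zbtb46-GFP+ cells, 1212 for Id2 KO against WT and 506 for Id2 KO against Batf3 KO. Under it 1 receptor gene was called for Batf3 KO against WT in CDPs (Adgrg7, adjusted p = 0.0481) and 3 for Id2 KO against Batf3 KO. The cause of these changes was not tested.

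Leaving out 1 array at a time gave 1183 to 2331, 642 to 1548 and 488 to 1506 called genes for the WT, Batf3 KO and Id2 KO steps, 33 to 96 for Batf3 KO against WT in Zbtb46-GFP+ cells, 120 to 357 for Id2 KO against WT and 36 to 152 for Id2 KO against Batf3 KO. Receptor genes called were 0 to 1, 0 to 4 and 0 to 2 in these 3 comparisons. Small differences that changed sign ranged, for Batf3 KO against WT in CDPs, from -0.14 to 0.35 for Adgrg1, -0.09 to 0.31 for Adgre1 and -0.07 to 0.56 for Adgre5. For Id2 KO against WT in CDPs they ranged from -0.20 to 0.29 for Adgrg1, -0.11 to 0.09 for Adgrg3 and -0.05 to 0.39 for Adgrg7. In Zbtb46-GFP+ cells they ranged from -0.10 to 0.03 for Adgrg7 in Batf3 KO, from -0.29 to 0.04 for Adgre1 in Id2 KO and from -0.26 to 0.32 for Adgrl4 between the knockouts.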
